A study of Homo sapiens with 6 samples.

Results

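A set of 10 prostaglandin genes was followed in A549 cells with and without IL17D overexpression. PTGS2, which encodes the inducible cyclooxygenase COX-2, was 1.22-fold higher in IL17D-overexpressing cells (adjusted p = 0.042 in the edgeR test), a call that ended under 7 of 12 alternative settings. None of the other members passed the test. The members were the rows of the gene count table named PLA2G4A, PTGS1, PTGS2, PTGES, PTGES2, PTGES3, PTGER2, PTGER4, HPGD and PTGR1, which are 10 of the 58735 genes listed. A549 is an established human lung adenocarcinoma cell line, and IL-17D is a secreted cytokine of the IL-17 family. RNA-seq was performed to examine how IL17D overexpression affects lung cancer cells. The control group was 3 libraries of A549 cells carrying an empty vector (control), and the other group was 3 libraries of A549 cells carrying a vector that overexpresses IL17D (IL17D). Per the methods, the vector was lentiviral, with a human PGK promoter and an IRES-linked GFP. A549 cells were maintained in RPMI medium with fetal bovine serum, and no further agent is named for the RNA-seq. Neither the labels nor the methods state whether the transduced cells were a pool or a clone, or whether the replicates came from separate cultures, so the p-values measure only the spread between these libraries.

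Prostaglandins are lipid signals made from arachidonic acid, which phospholipase A2 releases from membranes. Cyclooxygenases turn arachidonic acid into prostaglandin H2, terminal synthases convert it into prostaglandin E2 (PGE2) and the other prostanoids, and cells answer through G protein-coupled receptors, of which EP2 and EP4 raise cyclic AMP (cAMP). Breakdown begins with oxidation of the 15-hydroxyl group by 15-PGDH, followed by reduction of a double bond. In lung tumors this pathway is known for COX-2, which is induced by cytokines and growth factors, and for 15-PGDH, which removes PGE2. COX-1 is the constitutive relative of COX-2 in many tissues.

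The regulatory sequences of the cyclooxygenase pair are shown because PTGS2 was the member that rose, whereas PTGS1 was almost undetected in the same cells. Both are the 250 bases before the transcription start in RefSeq (GRCh38.p14), written 5′ to 3′ on the strand of the gene. The PTGS2 window is chr1:186680424-186680673 on the minus strand and the window of the first PTGS1 start is chr9:122370283-122370532 on the plus strand. Capitals mark TGACG on either strand (read as CGTCA on the other strand), TATAAA on the strand of the gene and TTNNGCAAT on either strand. These are the core of the cAMP response element, the TATA box and a C/EBP-type motif, and no capitals overlap.
PTGS2: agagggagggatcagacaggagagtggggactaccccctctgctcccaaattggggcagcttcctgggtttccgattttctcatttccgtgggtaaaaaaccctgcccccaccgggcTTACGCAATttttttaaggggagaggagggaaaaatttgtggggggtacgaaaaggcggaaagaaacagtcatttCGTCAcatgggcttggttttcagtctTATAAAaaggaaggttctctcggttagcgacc
PTGS1: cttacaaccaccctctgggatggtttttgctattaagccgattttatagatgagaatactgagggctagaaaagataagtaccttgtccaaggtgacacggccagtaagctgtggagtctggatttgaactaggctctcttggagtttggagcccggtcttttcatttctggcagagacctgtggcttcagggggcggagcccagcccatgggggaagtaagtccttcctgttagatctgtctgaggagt
The PTGS2 window held CGTCA from 58 to 54 bases before the start, TATAAA from 32 to 27 bases before it and TTACGCAAT from 133 to 125 bases before it. None of these letters was found in the PTGS1 window. Of the 35116 RefSeq promoter windows of this length, 21.2% held TGACG on either strand, 6.8% held TATAAA on the given strand and 2.04% held TTNNGCAAT on either strand. The GC content was 50.4% for PTGS2 and 49.6% for PTGS1. Among the other members, 1 TGACG match was found for PTGER2, for PTGES3 and for the first of the HPGD starts, and none for PLA2G4A, PTGES, PTGES2, PTGER4 or PTGR1. A match is a description of the letters and was not tested for binding.

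PTGS2 mRNA is also known for AU-rich elements in its 3′UTR, which bind proteins that control mRNA decay. The first bases after the stop codon are shown because they hold clustered ATTTA pentamers, in capitals (overlapping copies are run together; GENCODE 29 transcript, GRCh38, chr1:186674323-186674352, minus strand).
PTGS2 3′UTR: aagtctaatgatcatATTTATTTATTTAta
This window held 3 copies of ATTTA. The whole PTGS2 3′UTR was 2562 bases long and held 22 copies, a number reached by 2.21% of 19128 genes. PTGER4 had 9 copies, PTGES3 had 6, PTGER2 and HPGD had 5 each, PLA2G4A had 4, PTGS1 and PTGR1 had 3 each, PTGES had 1 and PTGES2 had 0. These numbers and the 2.21% are not scaled to length. Per kilobase of 3′UTR, PTGS2 had 8.59 copies, beside 8.46 for PLA2G4A (473 bases) and 19.5 for PTGR1 (154 bases). The other members had 0 to 6.63 per kilobase.

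The libraries held 14319398 to 16521021 counts on genes, and the upper limit behind a count of 0 was 3 counts, or 0.182 to 0.21 CPM (counts scaled by library size). IL17D itself was measured at 1.61 ± 0.449 CPM in control cells and 1907 ± 40.5 CPM in IL17D cells (SD, n = 3 each; log2 fold change 10.19, adjusted p = 2.47e-47), so all 6 libraries matched their labels. The labelled epithelial origin was read from 6 markers, of which the keratin genes KRT8, KRT18 and KRT7 made up nearly all of the summed level. EPCAM was low, at 1.05 ± 0.374 CPM in control and 0.974 ± 0.122 CPM in IL17D libraries, and KRT19 had 37 counts in all 6 libraries together. CDH1, which encodes E-cadherin, fell, with 43.3 ± 2.65 CPM in control and 35.6 ± 3.31 CPM in IL17D libraries (log2 fold change -0.28, adjusted p = 0.0306), a call that ended in DESeq2 (0.0659) and in 4 of the 6 fits that leave out a library (up to 0.269, without IL17D replicate 1). The epithelial sum was 12710 to 13220 CPM in control and 12350 to 12590 CPM in IL17D libraries. The 7 leukocyte markers summed to 2.54 to 3.56 CPM in control and 3.43 to 4.19 CPM in IL17D libraries, mostly ITGAM, while PTPRC and CD3E had no counts. The 6 fibroblast markers summed to 22.7 to 25.2 CPM and 19.6 to 24.3 CPM, mostly COL1A1, and the 4 endothelial markers to at most 0.607 CPM in any library, with KDR at 0. The part of these markers in the results was not tested. Fewer cells of a type and less RNA per cell cannot be told apart in bulk RNA.

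Levels were compared between genes per kilobase of gene length (RPKM, the CPM divided by the length in kilobases; mean and range over all 6 libraries). PTGES3 was the most abundant member at 128 (126 to 131) RPKM. It encodes p23, a co-chaperone of HSP90 that is also called cytosolic PGE2 synthase. It was followed by PTGR1 at 74.0 RPKM, PTGES at 53.8 RPKM, PTGES2 at 30.7 RPKM, HPGD at 20.6 RPKM and PLA2G4A at 11.2 RPKM. PTGS2 stood seventh at 5.89 (5.23 to 7.04) RPKM, below all the synthase and breakdown genes. The receptors PTGER4 and PTGER2 were low, at 0.847 and 0.305 RPKM, and PTGS1 was lowest at 0.0398 RPKM. The range over libraries of each gene lay apart from that of its neighbour in this order in all 9 neighbouring pairs. These ranges show only the spread between libraries. The order also depends on the gene length used, which was not set against the transcripts that the cells express.

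**Figure D1:**
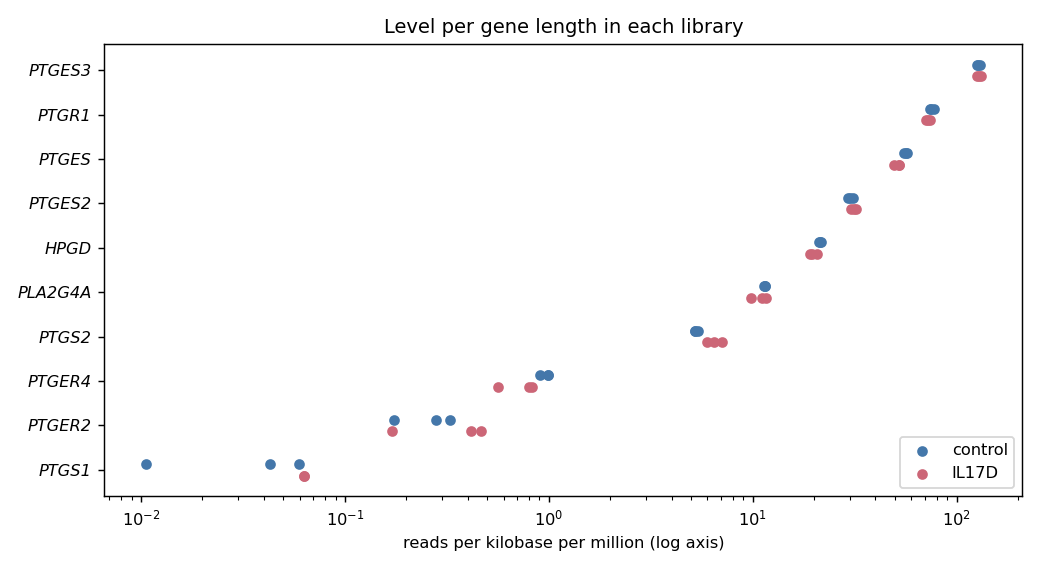
Level of each member in RPKM (x axis, log scale) in each of the 3 control libraries (blue) and 3 IL17D libraries (red), 1 gene per row. PTGES3 lies between 126 and 131 and PTGS2 between 5.23 and 7.04, and the IL17D library with 0 counts of PTGS1 has no point on the log axis.

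The groups were then compared gene by gene. Of the 10 members, 9 passed the filter on low counts and entered the edgeR test. PTGS1 did not pass. At an adjusted p under 0.05, 1 of the 9 rose, none fell and 8 did not pass the test. Over all 15754 tested genes, 0.673% rose, 0.908% fell and 1.58% were called in either direction. By the thresholds printed in the study's volcano plot (unadjusted p under 0.05 together with an absolute log2 fold change over 0.2), 1 member was higher and none lower, against 2.57% and 3.43% of all tested genes and 6% in either direction. The p-values were those of the edgeR test here, so these are not the study's own calls. At an unadjusted p under 0.05 alone, 3 of the 9 members passed (PTGS2, PTGES and HPGD), against 11.6% of all genes. The libraries of the groups did not overlap for 5 of the 9, higher in IL17D for PTGS2 and lower for PTGES, PTGER4, HPGD and PTGR1. Over all tested genes, 7.48% lay apart and higher, 8.31% apart and lower, and 15.8% in either direction. The median log2 fold change of the 9 members was -0.064, beside -0.00044 for all tested genes.

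**Figure D2:**
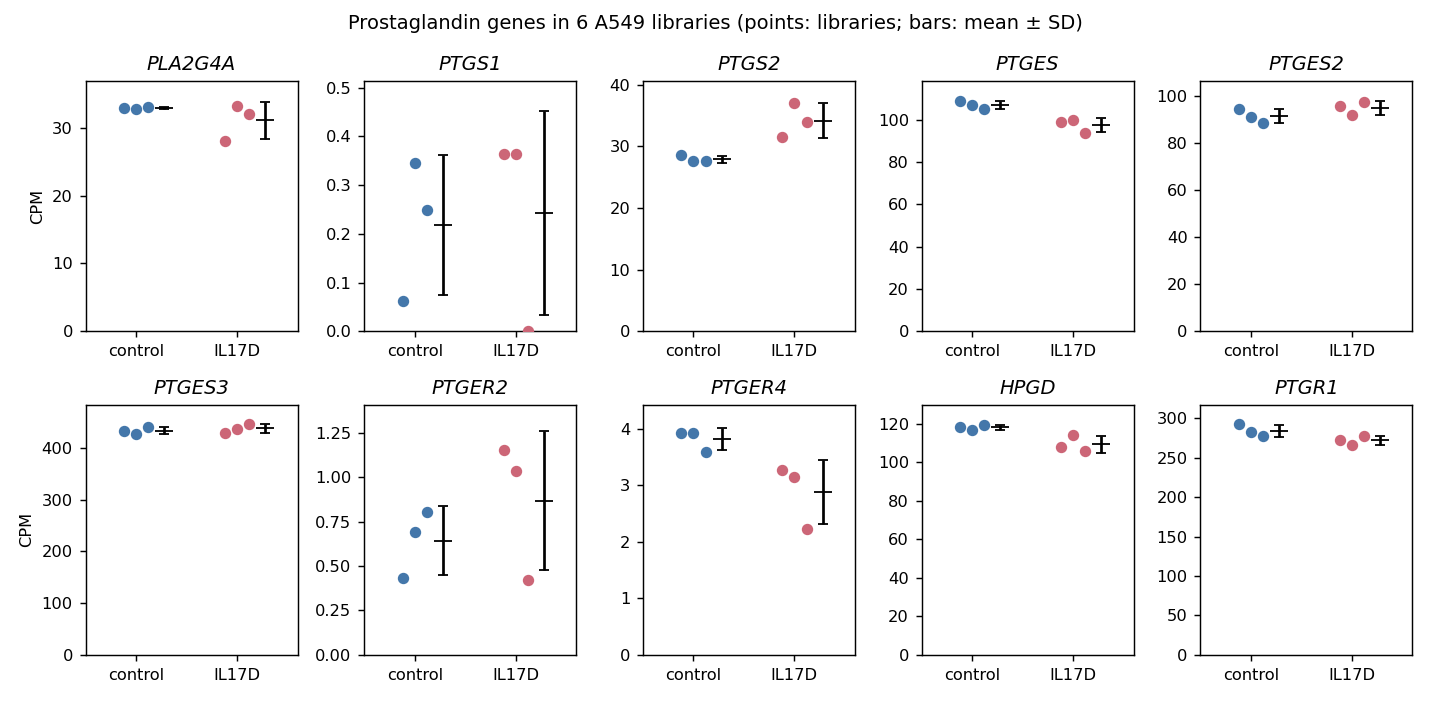
CPM of each member in the 3 control libraries (blue points) and the 3 IL17D libraries (red points), with the mean and SD as bars beside the points and each y axis starting at 0. PTGS2 lies at 27.6 to 28.6 CPM in control and 31.4 to 37.1 CPM in IL17D libraries, while PTGES3 and PTGES2 overlap between the groups.

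Release of arachidonic acid is represented by PLA2G4A (ENSG00000116711, chromosome 1, 186828953 to 186988981, plus strand), which encodes cytosolic phospholipase A2. Its level was 32.9, 32.8 and 33.1 CPM in control replicates 1, 2 and 3 and 28.1, 33.3 and 32.1 CPM in IL17D replicates 1, 2 and 3. The groups overlapped, because IL17D replicate 2 exceeded every control library while the others lay below. The log2 fold change was -0.081 (standard error 0.076, 95% interval -0.235 to 0.0734, adjusted p = 0.761). On chromosome 1 the rows of PLA2G4A and PTGS2 are 148525 bases apart.

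The cyclooxygenases catalyse the committed step. PTGS2 (ENSG00000073756, chromosome 1, 186671791 to 186680427, minus strand) was measured at 28.6, 27.6 and 27.6 CPM in control replicates 1, 2 and 3, from 465, 400 and 444 counts. In IL17D replicates 1, 2 and 3 it was measured at 31.4, 37.1 and 33.9 CPM, from 518, 611 and 485 counts. All 3 IL17D libraries exceeded all 3 control libraries, and IL17D replicate 2 was the highest. The means were 27.9 ± 0.568 CPM and 34.1 ± 2.84 CPM (SD, n = 3 each). This is a log2 fold change of 0.29 (standard error 0.077, 95% interval 0.135 to 0.447) with an adjusted p of 0.042 in the edgeR test, or 1.22-fold (1.10 to 1.36). The adjusted p was 0.0788 in DESeq2 and 0.0513 in limma voom. Leaving out 1 library at a time ended the call in 5 of 6 cases, and without IL17D replicate 2 the log2 fold change was 0.23 with an adjusted p of 0.268.

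**Figure D3:**
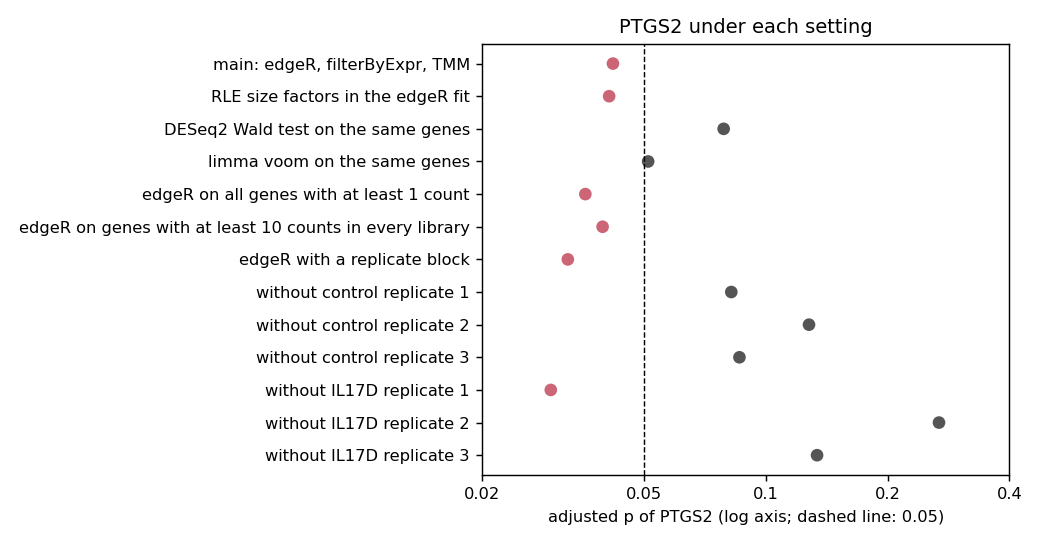
Adjusted p of PTGS2 (x axis, log scale) under each setting on the y axis, with a dashed line at 0.05 and red points under it. The values run from 0.0295 to 0.268, and the main value is 0.042.

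PTGS1 (ENSG00000095303, chromosome 9, 122370530 to 122395703, plus strand), which encodes COX-1, had 22 counts in all 6 libraries together. They were 1, 5 and 4 counts in control and 6, 6 and 0 counts in IL17D replicates 1, 2 and 3, or 0.218 ± 0.144 CPM and 0.243 ± 0.210 CPM (SD, n = 3 each). In a fit with no filter on low counts, over 32373 genes, its log2 fold change was 0.20 with a 95% interval of -1.54 to 1.94 (adjusted p = 0.965). A difference in PTGS1 was not detectable at this depth. Per length, PTGS2 made up 98.88% to 100% of the cyclooxygenase reads in every library.

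An antisense gene, PACERR (chromosome 1, 186680622 to 186681446, plus strand), begins inside the PTGS2 promoter window shown above. It had 8, 6 and 6 counts in control and 4, 7 and 14 counts in IL17D replicates 1, 2 and 3. The groups overlapped. It is named because it adjoins PTGS2 and was chosen after its values were seen.

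None of the 3 PGE2 synthase genes passed the test. PTGES (ENSG00000148344, chromosome 9, 129738331 to 129753047, minus strand) encodes microsomal PGE2 synthase, the inducible enzyme that is often coupled to COX-2. PTGES was measured at 109, 107 and 105 CPM in control and at 98.8, 99.5 and 93.7 CPM in IL17D replicates 1, 2 and 3. Every IL17D library lay below every control library. PTGES differed by -0.13 on the log2 scale (standard error 0.046, 95% interval -0.226 to -0.0402) with an unadjusted p of 0.00631, and did not pass the test after adjustment over all genes (adjusted p = 0.178).

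PTGES2 (ENSG00000148334, chromosome 9, 128120693 to 128128462, minus strand) encodes a membrane-associated PGE2 synthase. It was measured at 94.5, 90.9 and 88.7 CPM in control and at 95.7, 91.8 and 97.6 CPM in IL17D libraries, which overlapped (log2 fold change 0.056, standard error 0.048, 95% interval -0.0412 to 0.153, adjusted p = 0.73). PTGES3 (ENSG00000110958, chromosome 12, 56663341 to 56688408, minus strand) was measured at 433, 427 and 441 CPM in control and at 429, 437 and 447 CPM in IL17D libraries. Its log2 fold change was 0.013 with a 95% interval of -0.052 to 0.0783 (adjusted p = 0.933). This was the narrowest interval among the members, and without IL17D replicate 3 the value was -9.9e-05. Of the 31-base stretches in PTGES3 transcripts, 11.8% also occur in other genes, mainly its pseudogenes, and with the pseudogene counts added its log2 fold change was 0.012. For PTGES the share was 7.83%. Per length, PTGES made up 26.53%, 26.63% and 25.82% of the reads of the 3 synthase genes in control replicates 1, 2 and 3. In IL17D replicates 1, 2 and 3 it made up 24.82%, 24.84% and 23.21%, a lower share in all 3. PTGES itself was lower in these libraries while PTGES2 and PTGES3 overlapped, so the share is not a separate result. It was given no test.

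The receptor genes were measured from few reads. PTGER2 (ENSG00000125384, chromosome 14, 52314305 to 52328606, plus strand), the EP2 receptor, had 7, 10 and 13 counts in control and 19, 17 and 6 counts in IL17D replicates 1, 2 and 3. These are 0.430, 0.690 and 0.807 CPM and 1.15, 1.03 and 0.420 CPM. IL17D replicate 3 lay below every control library while the others lay above. The log2 fold change of 0.45 had a standard error of 0.461 and a 95% interval of -0.481 to 1.39 (adjusted p = 0.785).

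PTGER4 (ENSG00000171522, chromosome 5, 40679498 to 40693735, plus strand), the EP4 receptor, had 64, 57 and 58 counts in control and 54, 52 and 32 counts in IL17D replicates 1, 2 and 3. In CPM these were 3.93, 3.93 and 3.60 against 3.28, 3.16 and 2.24, and every IL17D library lay below every control library. A log2 fold change of -0.39 (standard error 0.218, 95% interval -0.837 to 0.051) did not pass the test (adjusted p = 0.516). PTGER4 lies within the coordinates of TTC33 on the opposite strand, and whether counting used strand is not given in the sources used here. When the counts of both genes were summed, the log2 fold change was 0.015 (adjusted p = 0.983), and TTC33 held 1473 of these counts against 317 for PTGER4.

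The breakdown enzymes were well measured. HPGD (ENSG00000164120, chromosome 4, 174490177 to 174523154, minus strand) encodes 15-PGDH, which starts the inactivation of PGE2. HPGD was measured at 118, 116 and 119 CPM in control and at 108, 114 and 106 CPM in IL17D replicates 1, 2 and 3. Every IL17D library lay below every control library, with IL17D replicate 2 nearest to the control range. The log2 fold change of -0.11 (standard error 0.045, 95% interval -0.201 to -0.0189) had an unadjusted p of 0.0193 and an adjusted p of 0.303, and HPGD did not pass the test.

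PTGR1 (ENSG00000106853, chromosome 9, 111549722 to 111599893, minus strand) encodes prostaglandin reductase 1, which reduces the product of 15-PGDH and also inactivates leukotriene B4. It was measured at 293, 283 and 277.63 CPM in control and at 272, 267 and 277.59 CPM in IL17D replicates 1, 2 and 3. The groups were parted only by the difference between replicate 3 of each. The log2 fold change was -0.064 (standard error 0.035, 95% interval -0.136 to 0.00826, adjusted p = 0.516). Of the 31-base stretches in PTGR1 transcripts, 8.39% also occur in other genes. PTGR1 overlaps ZNF483 and AL135787.1 on the opposite strand, and with their counts added its log2 fold change was -0.063.

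**Figure D4:**
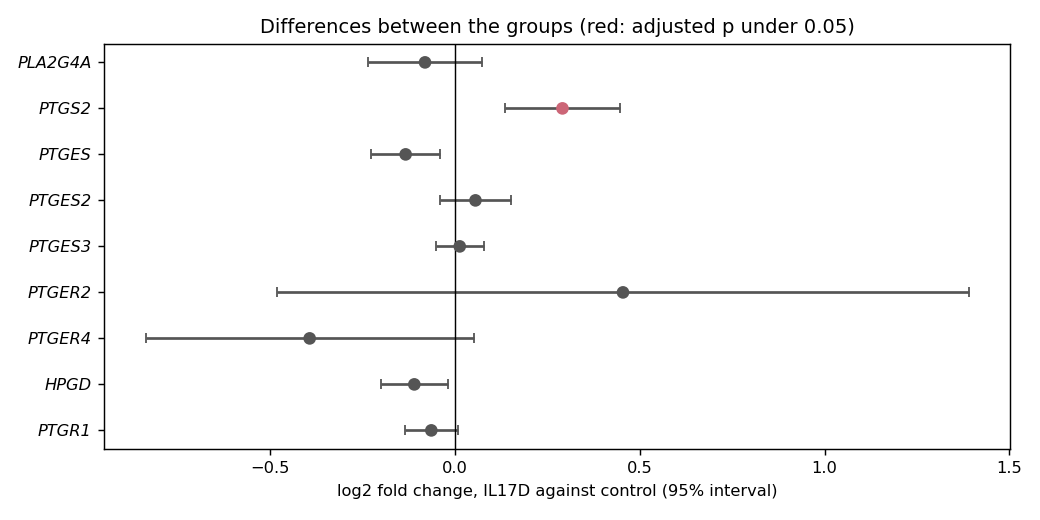
Log2 fold change of IL17D against control (x axis) with its 95% interval for the 9 tested members, with the adjusted p under 0.05 in red. PTGS2 at 0.29 is the red point, the intervals of PTGES and HPGD lie below 0, and those of PTGER2 and PTGER4 are the widest.

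The balance of PTGS2 against the enzymes around it was also read within each library, where the library size cancels. For every 100 counts of HPGD there were 24.16, 23.7 and 23.1 counts of PTGS2 in control and 29.13, 32.47 and 32.06 in IL17D replicates 1, 2 and 3. For every 100 counts of PTGES there were 26.3, 25.79 and 26.27 counts of PTGS2 in control and 31.82, 37.26 and 36.19 in IL17D libraries. For every 100 counts of PLA2G4A there were 86.75, 84.21 and 83.15 in control and 111.9, 111.3 and 105.7 in IL17D libraries. All 3 ratios were higher in every IL17D library than in any control library. For HPGD and PTGES this had to follow, because PTGS2 lay apart and higher in IL17D while HPGD and PTGES lay apart and lower. These ratios therefore add no result to those of the single genes. PLA2G4A overlapped between the groups. They are counts not scaled to gene length, they share the PTGS2 counts, and they were given no test.

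The rest of the eicosanoid pathway was read from 5 lists of 57 genes in the table that are not members (phospholipases and arachidonate release, other prostanoid synthases, other prostanoid receptors, transport and other breakdown enzymes, and lipoxygenase and leukotriene genes). Of these, 31 were tested, 0 rose and 4 fell, against 0.908% of all tested genes that fell. The log2 fold change was below 0 for 22 of the 31 and above 0 for 9, beside 7896 below and 7858 above over all tested genes, and their median was -0.088. The libraries of the groups lay apart for 8 of the 31, higher in IL17D for 1 and lower for 7, against 7.48% and 8.31% of all tested genes. The lists were drawn up with earlier results of these data known, so the counts are descriptions, and no test was made of a list.

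Among the other prostanoid synthases, 6 of 9 genes in the table were tested and 2 fell, with a median of -0.21. AKR1C3 (chromosome 10, 5035354 to 5107686) encodes prostaglandin F synthase, an aldo-keto reductase of prostaglandins and steroids. AKR1C3 was measured at 1213, 1134 and 1132 CPM in control and at 948, 966 and 965 CPM in IL17D replicates 1, 2 and 3. All IL17D libraries lay below all control libraries, and the log2 fold change was -0.27 (standard error 0.029, adjusted p = 1.05e-07). AKR1C3 shares sequence with AKR1C1, AKR1C2 and AKR1C4, and the summed counts of these 4 genes gave -0.29 on the log2 scale, with an adjusted p of 9.63e-10. Most of the sum was not AKR1C3, since AKR1C2 held 181191 counts against 99756 for AKR1C3. In the edgeR test AKR1C1 (-0.30, adjusted p = 3.3e-07) and AKR1C2 (-0.29, adjusted p = 3.49e-09) also fell, while AKR1C4 did not pass (0.24, adjusted p = 0.882). The fall was therefore not particular to AKR1C3. AKR1B1 (chromosome 7, 134442350 to 134459284), aldose reductase, which can also form prostaglandin F2α, fell, with 664 ± 16.9 CPM in control and 603 ± 11.3 CPM in IL17D libraries (SD, n = 3 each; log2 fold change -0.14, standard error 0.031, adjusted p = 0.00879). Its call ended in 3 of the 6 fits that leave out a library, with an adjusted p of up to 0.0892, and 13.9% of its 31-base stretches occur in other genes. TBXAS1, thromboxane synthase, was measured at 9.84 ± 0.875 CPM and 7.65 ± 0.529 CPM (adjusted p = 0.211), and CBR3, a carbonyl reductase, at 4.70 ± 0.524 CPM and 3.51 ± 0.738 CPM (adjusted p = 0.399).

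Among 14 phospholipase and arachidonate release genes, 8 were tested and 1 fell, with a median log2 fold change of -0.047. It was MGLL (chromosome 3, 127689062 to 128052190), monoacylglycerol lipase, which hydrolyses 2-arachidonoylglycerol to arachidonic acid. MGLL was measured at 157, 169 and 163 CPM in control and at 137, 136 and 125 CPM in IL17D replicates 1, 2 and 3. The groups did not overlap, and the log2 fold change was -0.30 (standard error 0.044, adjusted p = 3.72e-05). DAGLB, a diacylglycerol lipase that makes 2-arachidonoylglycerol, was measured at 40.1 ± 2.22 CPM and 45.8 ± 3.26 CPM and did not pass the test (log2 fold change 0.19, adjusted p = 0.187).

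In the list of 18 lipoxygenase and leukotriene genes, 10 were tested and 1 fell, with a median log2 fold change of -0.13. MGST2 (chromosome 4, 139665768 to 139740745) encodes a microsomal glutathione S-transferase that can conjugate leukotriene A4 to glutathione. It was measured at 20.3, 20.4 and 21.0 CPM in control and at 15.2, 15.2 and 15.5 CPM in IL17D replicates 1, 2 and 3, so the groups lay far apart relative to their spread (log2 fold change -0.43, standard error 0.094, adjusted p = 0.00832). MGST3, a related transferase, was measured at 74.7 ± 4.76 CPM and 68.7 ± 1.35 CPM (adjusted p = 0.373), and LTA4H, leukotriene A4 hydrolase, at 103.6 ± 3.33 CPM and 105.5 ± 2.32 CPM (adjusted p = 0.898).

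Of the 7 other prostanoid receptors, none passed the filter on low counts. TBXA2R, the thromboxane receptor, had 39 counts in all 6 libraries together, PTGER1 had 19, and PTGER3 and PTGFR had 0. Of 9 genes for transport and other breakdown enzymes, 7 were tested and none passed the test, with a median log2 fold change of -0.080. ABCC4, an exporter of prostaglandins, was measured at 168 ± 3.31 CPM and 158 ± 4.03 CPM (log2 fold change -0.086, adjusted p = 0.394). The fatty acid hydroxylase genes CYP4F3 (log2 fold change -0.11, adjusted p = 0.392) and CYP4F11 (0.020, adjusted p = 0.908) did not pass either.

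EP2 and EP4 signal through cAMP, and PTGS2 itself belongs to the genes that carry a cAMP response element, so 20 cAMP and CREB-responsive genes were read beside the members. The list was drawn up with earlier results of these data known, so its shares are not independent of those results. Of 17 tested, 4 rose, 0 fell and 13 did not pass the test, against 0.673% rising and 0.908% falling over all tested genes. The median log2 fold change was 0.19, with 15 genes above 0 and 2 below, and the libraries of the groups lay apart and higher in IL17D for 8, against 7.48% of all tested genes. By the volcano thresholds 6 were higher and 1 lower, against 2.57% and 3.43%. Many of these genes also respond to other signals, such as MAPK and serum, which were not separated here.

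NR4A1 (chromosome 12, 52022832 to 52059507), an orphan nuclear receptor and immediate early gene, was measured at 40.7, 39.3 and 40.6 CPM in control and at 55.7, 53.9 and 54.8 CPM in IL17D replicates 1, 2 and 3. No library of either group came near the other group (log2 fold change 0.45, standard error 0.061, adjusted p = 9.22e-06). Its relative NR4A3 (chromosome 9, 99821855 to 99866891) rose, with 7.50 ± 0.700 CPM in control and 11.1 ± 0.602 CPM in IL17D libraries (SD, n = 3 each; log2 fold change 0.57, adjusted p = 0.0115). FOSL2 (chromosome 2, 28392448 to 28417312), an AP-1 subunit, rose, with 185 ± 7.54 and 214 ± 6.16 CPM in the groups (log2 fold change 0.21, adjusted p = 0.00151). DUSP1 (chromosome 5, 172768090 to 172771195), a phosphatase that switches off MAPK, rose, with 159 ± 5.52 and 176 ± 4.51 CPM in the groups (log2 fold change 0.15, adjusted p = 0.0461). The call of NR4A3 ended without control replicate 1 (adjusted p = 0.0906) and without IL17D replicate 2 (0.0738). That of DUSP1 ended in 5 of the 6 fits that leave out a library, with an adjusted p of up to 0.267. In their RefSeq windows of 250 bases, TGACG was found 4 times for NR4A3, 4 times for DUSP1 and 2 times for FOSL2. Over all windows, 4.76% held it 2 or more times. The GC content of these 3 windows was 68.0%, 74.4% and 69.6%, and the share over all windows was not matched for it. List genes without a call were not scanned, so the matches cannot be set against the rise. No match was found for either of the NR4A1 starts.

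**Figure D5:**
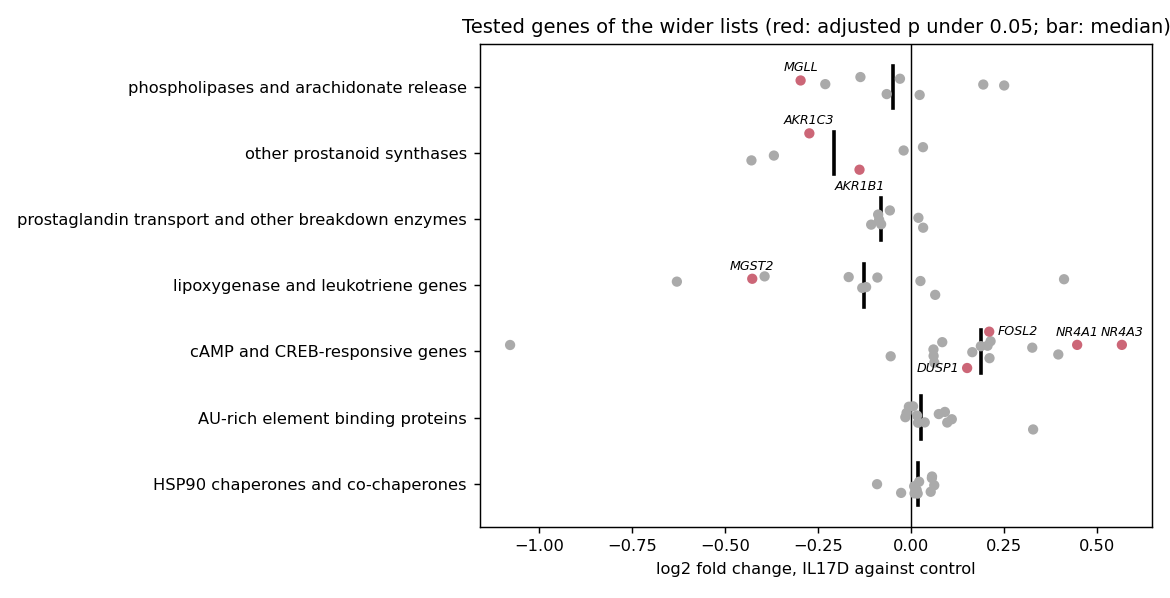
Log2 fold change of IL17D against control (x axis) for each tested gene of 7 wider lists (rows), with the adjusted p under 0.05 in red and named and the median of each list as a black bar. The cAMP and CREB-responsive list has its median at 0.19, the eicosanoid lists have theirs between -0.21 and -0.047, and the list of other prostanoid receptors has no tested gene.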

How the data were processed

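Total RNA of A549 cells was sequenced in 3 control and 3 IL17D libraries. The authors deposited 1 table of raw counts per gene, without normalization. The submitters' processing notes name Bowtie2 and hg38, while the counting tool and its strand setting are not given in the sources used here. Gene coordinates in the table are those of GENCODE 29 on GRCh38. Groups came from the sample labels. None of the per-sample columns was left out.

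Counts were analysed in R 4.3.3 with edgeR 4.0.16 (filterByExpr, TMM, quasi-likelihood test without covariates, two-sided), and p-values were adjusted by Benjamini-Hochberg over 15754 tested genes. This covered all genes, and the rows of the members were read from it. CPM follow TMM scaling (factors 0.9972 to 1.004), errors are SD, and RPKM is CPM per kilobase of the gene length in the table. The biological coefficient of variation was 4.4%. Each library counted as 1 sample. Within each group the libraries differed by more than sampling noise (chi-square per degree of freedom 2.155 to 3.179), which cannot show whether they came from separate cultures. The steps were tested on counts simulated from the fitted means and spread, with each library independent. Such a run cannot show how the replicates here were made. Alternatives were RLE factors, DESeq2 1.42.0, limma voom (limma 3.58.1), all genes with at least 1 count, genes at 10 counts or more in each library, a replicate block, leaving out each library, and summed counts of overlapping genes, of pseudogenes and of the AKR1C genes. The sum of the AKR1C genes, and the alternatives for the called genes that are not members, were chosen after the values were seen. Sequences were read with Python 3.11.15 from RefSeq (GRCh38.p14) promoters and GENCODE 29 transcripts.

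The members and gene lists were chosen with earlier results of these data known. The lists also held FAM213B and PTGR3, other names of the listed PRXL2B and ZADH2, and these were not counted. Named genes are IL17D, the members and, of each list, those with an adjusted p under 0.05, up to 3 more with the smallest unadjusted p under 0.05, and the 2 with the highest RPKM. Counting error and the number of replicates limit the precision, and the limit of 3 counts covers counting error only.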

Additional observations from a re-analysis of the deposited data

How the results depend on the processing

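Depth limits the receptors and PTGS1: the 95% interval of PTGER2 spans -0.481 to 1.39 on the log2 scale, and PTGS1 was not tested. PTGS2 stayed higher in IL17D under all 12 alternatives, with a log2 fold change of 0.23 to 0.35 and an adjusted p of 0.0295 to 0.268. The call was kept in 5 (RLE factors 0.0411, all genes 0.0359, genes with at least 10 counts 0.0396, the replicate block 0.0325, and without IL17D replicate 1 0.0295) and ended in 7. The number of members with an adjusted p under 0.05 was thus 0 under DESeq2 and 0 under limma voom, and 0 to 1 when a library was left out, while 1 member passed the volcano thresholds under all 12. Without IL17D replicate 2, the adjusted p of PTGS2 was 0.268, without IL17D replicate 3 0.134, and without control replicates 1, 2 and 3 0.0823, 0.128 and 0.0862. The number of all genes called was 145 to 267 when a library was left out, beside 249 with all, and was lowest without IL17D replicate 3 (145) and without IL17D replicate 1 (155). The 4 calls in the wider prostaglandin lists came to 3 to 4 under the alternatives.

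The direction turned for PTGES3 without IL17D replicate 3 (-9.9e-05; -9.9e-05 to 0.028 over left-out libraries), a value of almost 0, and for PTGER4 when summed with TTC33 (0.015). That sum is mostly TTC33 (1473 counts against 317), whose own log2 fold change was 0.10, so it cannot show the direction of PTGER4 itself. Alternatives were run for 18 genes (the 9 tested members and the 9 called genes of the lists). Of 220 results, 195 kept direction and call, 23 lost the call, 0 gained it and 2 turned. The cause was not tested. DUSP1 also lost its call in DESeq2 (adjusted p = 0.0519). PTGER2 has no value under the filter of 10 counts in each library, since it did not reach them.

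The control and IL17D libraries share replicate numbers, but the deviations of same-numbered libraries from their group means correlated at 0.00997, -0.0119 and -0.0151, so the numbers were not taken as pairs. With the replicate number as a block, PTGS2 had a log2 fold change of 0.29 and an adjusted p of 0.0325, and no call of a member changed.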

Other observations

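PTGES3 encodes the HSP90 co-chaperone p23, and the HSP90 genes around it did not pass the test. Of 12 listed chaperone and co-chaperone genes, 11 were tested and none passed the test, with a median log2 fold change of 0.018. HSP90AA1, the inducible HSP90, was measured at 2688 CPM in control and 2722 CPM in IL17D libraries (log2 fold change 0.018, adjusted p = 0.852), and HSP90AB1, the constitutive form, at 2025 and 2046 CPM (0.015, adjusted p = 0.884). A further list of 12 genes was drawn up around proteins that bind AU-rich elements, such as those of the PTGS2 3′UTR. Not all of its proteins, such as PCBP2 and CELF1, are known chiefly for that binding. All 12 were tested and none passed the test, with a median log2 fold change of 0.028. CELF1 was measured at 178 and 191 CPM (log2 fold change 0.098, adjusted p = 0.277), while KHSRP (-0.0056, adjusted p = 0.983) and RBM3 (0.0056, adjusted p = 0.983) were the most abundant of the list per length.

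Among the cAMP and CREB-responsive genes, SIK1, a kinase that feeds back on CREB signaling, was measured at 5.47, 6.49 and 28.98 CPM in control replicates 1, 2 and 3 and at 6.37, 6.31 and 6.85 CPM in IL17D replicates. Control replicate 3 stood above all other libraries, and the log2 fold change of -1.08 did not pass the test (adjusted p = 0.0828). PDE10A, a phosphodiesterase that breaks down cAMP (86.8 and 97.2 CPM, log2 fold change 0.16, adjusted p = 0.095), and JUNB, an AP-1 subunit (44.8 and 52.0 CPM, 0.21, adjusted p = 0.112), did not pass. AREG, an EGF receptor ligand, was measured at 165 and 159 CPM (-0.055, adjusted p = 0.673).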
